A study of Homo sapiens with 16 samples.

Results

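The 38 genes examined here mark the monocyte lineage and the granules of its precursors. They are 25 genes of mature monocytes and macrophages, 5 genes of the azurophil granule that promyelocytes make, and 8 genes that several myeloid stages share or that regulate them. The genes were listed by name, and the value of a gene is the mean of the spots that carry its symbol. On the arrays, 35 of the 38 genes were measured on 58 spots, out of 17329 genes on 28970 spots. CD33, FCGR1A and MRC1 have no spot named for them in the platform annotation used here. The measured genes comprise 23 of the mature monocyte class, 5 of the granule class and 7 of the shared class.

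Monocytes arise from bone marrow precursors that pass from a promyelocyte-like stage, in which myeloperoxidase and the neutrophil serine proteases are made and packed into azurophil granules, to a mature stage with CD14, integrins, Fc receptors and chemoattractant receptors on the surface. PU.1 (encoded by SPI1), IRF8 and KLF4 are transcription factors of this path. U937, a human line from a histiocytic lymphoma, is arrested at an immature monocytic stage and is widely used as a model in which agents such as phorbol ester, vitamin D or retinoic acid raise monocyte markers.

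U937 cells were cultured with 20 nM UNBS1450, a hemi-synthetic cardenolide of the cardiac glycosides, which inhibit the sodium pump, and were compared with control cultures without the agent after 0, 3, 6 and 9 h. Each of 16 Agilent arrays of 2 colours held the treated cells and their control from the same time point in different dyes, with 4 arrays per time point that the labels call biological replicates. Treated RNA was in Cy5 on replicates 1 and 2 and in Cy3 on replicates 3 and 4. According to the methods no agent was given for 0 h and both dyes carried untreated cells, whereas the labels name the agent there too. All cells were of a single line, which some label fields spell U397. Fewer cells that express a gene and less of its RNA per cell cannot be told apart in such cultures. Values are log2 ratios of treated over control, where 0 is equal signal in both dyes. The files used here hold ratios and not signals, so the expression level of a gene, and whether its spot lay above background, are not known; a ratio near 0 is also what a spot without signal would give. For the same reason the monocytic identity of the cells could not be checked against the markers.

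The granule genes AZU1 and PRTN3 lie side by side, with ELANE, within 28407 bases of chromosome 19, and their promoters are shown because the genes of this cluster are compared with the monocyte genes below. The promoter of C3AR1, the member with the highest ratio at 9 h, is shown beside them. The sequences are the 150 bases before the start site, from RefSeq on GRCh38.p14, for AZU1 at chr19:827687-827836 (plus strand), PRTN3 at chr19:840849-840998 (plus strand) and C3AR1 at chr12:8066360-8066509 (minus strand). Capitals mark GAGGAA, letters that PU.1 can bind, and TTGCNNAA, each searched on both strands. TTGCNNAA holds the C/EBP half-site TTGC and only the AA of a facing half-site GCAA, with any base at N.
AZU1: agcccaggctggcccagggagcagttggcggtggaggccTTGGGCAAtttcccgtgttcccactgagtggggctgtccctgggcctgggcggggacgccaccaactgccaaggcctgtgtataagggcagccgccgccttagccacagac
PRTN3: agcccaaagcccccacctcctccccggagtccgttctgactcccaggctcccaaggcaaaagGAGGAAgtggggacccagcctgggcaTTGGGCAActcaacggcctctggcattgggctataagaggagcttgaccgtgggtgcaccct
C3AR1: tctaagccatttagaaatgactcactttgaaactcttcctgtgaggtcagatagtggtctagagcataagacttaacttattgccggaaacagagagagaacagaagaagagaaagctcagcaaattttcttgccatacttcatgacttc
AZU1 and PRTN3 share the letters TTGGGCAA, which match TTGCNNAA on the other strand, and PRTN3 holds GAGGAA as well. C3AR1 holds neither GAGGAA nor TTGCNNAA in this window. Shorter parts of these letters were not searched. Of 35116 promoters, 14.77% held GAGGAA and 5.018% held TTGCNNAA in the same length. Of the 27 members found in the promoter table, 13 held GAGGAA (10 mature monocyte, 2 granule and 1 shared) and 3 held TTGCNNAA (PRTN3, AZU1 and CD68). ITGAX, ITGB2, LYZ, MPO, ELANE, MSR1, SPI1 and CD4 have no entry there. A match of letters is a description of the sequence and not a site of binding.

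The monocyte and granule genes showed small ratios at every time point, and none was called changed. To be called, a gene had to differ by 1.3-fold or more with an adjusted p below 0.05, from limma with Benjamini-Hochberg adjustment over all 17329 genes. By this rule 0 of 35 members were called at 0, 3, 6 and 9 h, against 0, 0, 0 and 0.531% of all genes (92 genes at 9 h, 32 higher and 60 lower). At an unadjusted p of 0.05 limma found 2, 3, 1 and 4 members at the 4 times, against 6.16, 4.15, 8.89 and 18.8% of all genes. Robust regression, as another fit in limma, also called 0 members at each time. The median size of the log2 fold change at 9 h was 0.053 over the members and 0.068 over all genes.

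Most members had narrow intervals, at a share close to that of all genes. The 95% interval of a member lay wholly within 1.3-fold of no change for 32, 30, 29 and 30 of the 35 members at 0, 3, 6 and 9 h, which compares with 87.1, 89.1, 84.8 and 81.0% of all genes. At 9 h the 5 members with a wider or shifted interval were FCGR2A, C3AR1, AZU1, LYZ and IRF8. The intervals of those 5 genes reached past 1.3-fold in at least one direction.

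**Figure D1:**
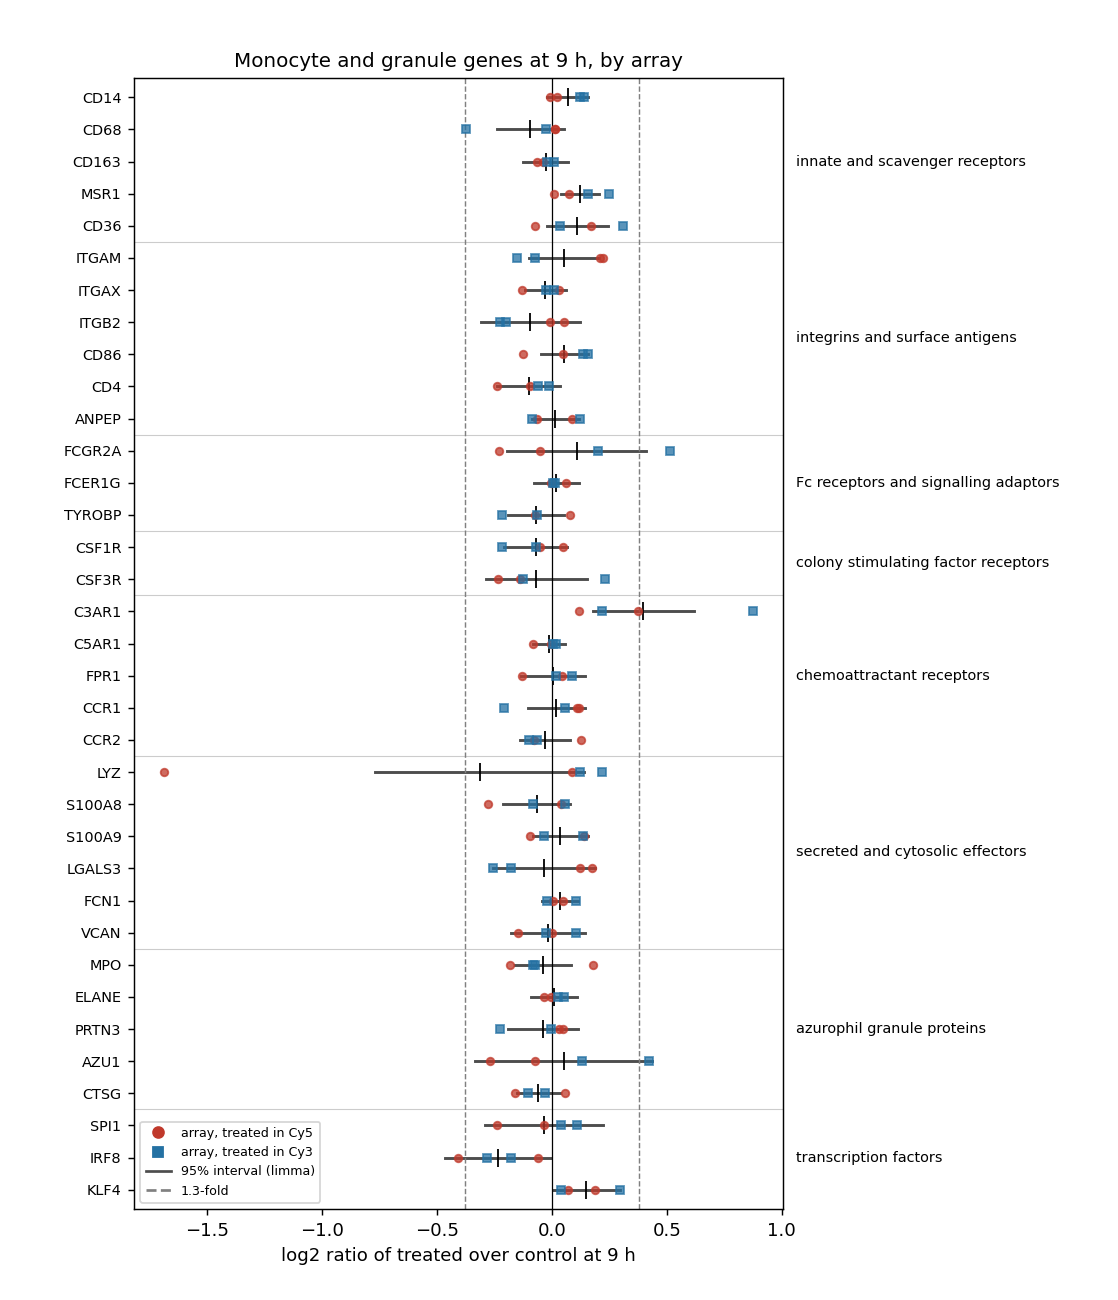
Log2 ratio of treated over control cells at 9 h (horizontal axis) for the 35 members by role, with the 4 arrays as points (circles, treated in Cy5; squares, treated in Cy3), the mean as a tick and the 95% interval of the limma fit as a bar; dashed lines stand at 1.3-fold. C3AR1 is the member farthest to the right (mean 0.40), and the LYZ array at −1.69 stands apart from its other 3.

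Among the chemoattractant receptors, C3AR1, which encodes the receptor of the complement fragment C3a and lies at chr12:8056844-8066359 (GRCh38.p14), had the highest ratio of any member at 6 and 9 h. Its log2 ratios on replicates 1, 2, 3 and 4 were 0.27, 0.09, 0.05 and −0.03 after 0 h, and 0.18, −0.09, 0.13 and 0.09 after 3 h. They were 0.26, 0.08, 0.06 and 0.56 after 6 h, and 0.38, 0.12, 0.22 and 0.88 after 9 h. All 4 arrays were thus above 0 at 6 and 9 h, replicate 4 was the highest at both times, and the 9 h values overlapped those at 0 h. The mean at 9 h was 0.40 ± 0.10 (SE of the limma fit, n = 4), a fold of 1.317 with a 95% interval from 1.132 to 1.534, and its adjusted p was 0.065 in limma. With a coefficient for the dye in the limma fit, which called 1.88% of all genes at 9 h, C3AR1 was called with the same fold (adjusted p = 0.036), and over all fits its adjusted p ranged from 0.034 to 0.52. Without replicate 4 the mean was 0.24. Against 0 h, the 9 h ratio was 0.30 higher, with an adjusted p of 0.53 in limma.

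The other 4 chemoattractant receptors had means close to 0 at 9 h. C5AR1, the receptor of C5a, stood at −0.014, FPR1, which binds formylated peptides, at 0.0048, CCR1 at 0.019 and CCR2, the receptor of CCL2, at −0.029. CCR1 was below 0 on all 4 arrays at 3 h (from −0.29 to −0.0027, mean −0.14), with an adjusted p of 0.9997 in limma. Its spots differed there, with means of −0.242 and −0.041, and the latter spot had arrays on both sides of 0. The mean of the C5AR1 spots was above 0 on all 4 arrays at 6 h, between 0.0062 and 0.048, but neither spot was so on its own. At 9 h the C5AR1 spots had means of −0.074 and 0.046.

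Of the innate and scavenger receptors, MSR1, the class A macrophage scavenger receptor, had the smallest p at 9 h. The mean of its 3 spots was 0.0057, −0.042, 0.021 and 0.040 on the arrays at 0 h, and −0.017, 0.031, 0.010 and −0.015 after 3 h. It was −0.0075, 0.030, 0.029 and −0.035 after 6 h, and 0.075, 0.0085, 0.25 and 0.16 after 9 h. The 9 h arrays were all above 0, with the Cy3 arrays higher than the Cy5 arrays, and 1 of them lay within the range of the earlier times. The mean of 0.12 ± 0.04 (SE, n = 4) is a fold of 1.089, under the threshold of 1.3, and the adjusted p was 0.10 in limma. CD14, the co-receptor for lipopolysaccharide, had means of −0.020, 0.029, −0.052 and 0.069 at 0, 3, 6 and 9 h. CD36, a receptor for oxidized lipids and thrombospondin, stood at 0.11 at 9 h, CD163, the haemoglobin scavenger receptor, at −0.027, and CD68, a lysosomal glycoprotein of macrophages, at −0.093. The CD68 mean rested on replicate 3 at −0.37, since the other 3 arrays lay between −0.026 and 0.014.

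Among the integrins and surface antigens, CD4, which monocytes carry at low level, had the smallest p at 9 h. Its ratios on replicates 1 to 4 were −0.31, −0.26, −0.027 and −0.10 after 0 h and −0.021, 0.068, −0.020 and 0.0076 after 3 h. They were −0.40, 0.048, −0.035 and −0.10 after 6 h and −0.24, −0.094, −0.060 and −0.011 after 9 h. CD4 was below 0 on all 4 arrays both at 9 h and at 0 h. The mean was −0.10 at 9 h (adjusted p = 0.44, limma) and −0.17 after 0 h (adjusted p = 0.81, limma). ITGAM and ITGAX, the alpha chains of the complement receptor integrins, stood at 0.052 and −0.029 after 9 h. CD86, a ligand of CD28 on antigen-presenting cells, stood at 0.055, and ANPEP, the aminopeptidase CD13, at 0.015. Their spots differed in sign at 9 h, with means of 0.122 and −0.012 for CD86 and −0.084 and 0.114 for ANPEP. The mean of the CD86 spots was above 0 on all 4 arrays at 3 h (0.056 to 0.17, mean 0.11, adjusted p = 0.9997, limma). Neither spot was so on its own, and their means were 0.013 and 0.204.

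ITGB2, the shared beta chain of these integrins, has 11 spots on the array. Its mean was 0.16, 0.33, −0.17 and −0.23 on the arrays at 0 h, 0.24, 0.074, −0.22 and −0.19 after 3 h, 0.16, 0.18, −0.11 and −0.31 after 6 h, and 0.055, −0.0059, −0.22 and −0.20 after 9 h. The arrays with treated RNA in Cy5 lay above those with treated RNA in Cy3 at each time, at 0 h too. Over the 10 spots of one transcript the ratios of an array stayed close together, and on 12 of the 16 arrays the remaining spot lay on the opposite side of 0 from all 10. The means of the 10 spots lay between −0.16 and −0.086 after 9 h, and that of the remaining spot was 0.10.

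**Figure D2:**
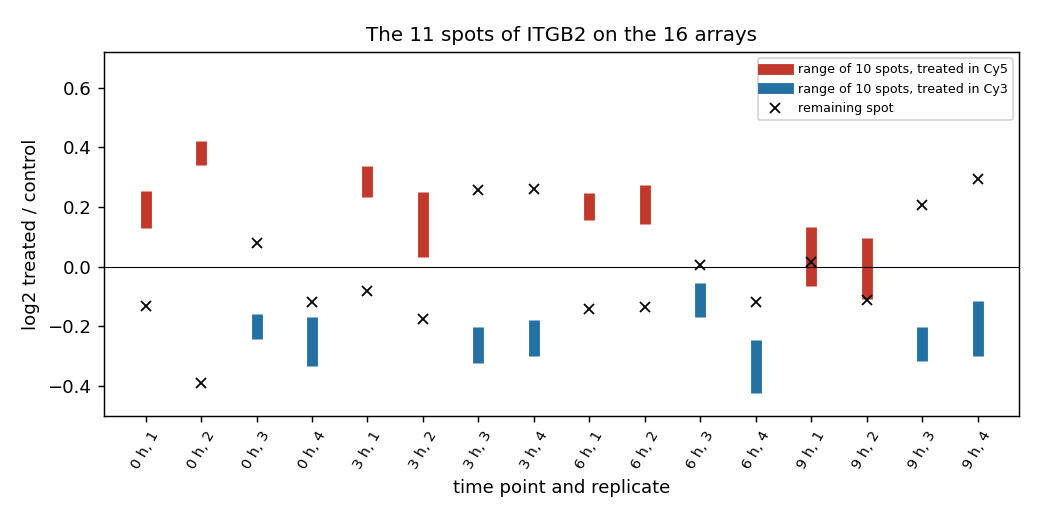
Log2 ratio of treated over control (vertical axis) for the 11 spots of ITGB2 on the 16 arrays (horizontal axis, time point and replicate); bars span the 10 spots of one transcript, red with treated RNA in Cy5 and blue with it in Cy3, and crosses are the remaining spot. The bars stand above 0 on the Cy5 arrays at 0, 3 and 6 h and below 0 on all Cy3 arrays.

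Of the Fc receptors and their adaptors, TYROBP, which carries an activation motif for several receptors of myeloid cells, had the smallest p at 9 h. Its ratios were 0.16, −0.070, −0.057 and −0.061 after 0 h, 0.21, 0.074, −0.0047 and −0.063 after 3 h, 0.040, 0.15, −0.046 and 0.041 after 6 h, and 0.081, −0.074, −0.064 and −0.22 after 9 h. The sign differed between arrays at every time, and the mean at 9 h was −0.068 (adjusted p = 0.58, limma). FCER1G, the common gamma chain of Fc receptors, stood at 0.020 at 9 h. FCGR2A, a low affinity IgG receptor with closely similar genes beside it, stood at 0.11 at 9 h, with 0.36 as the mean of the Cy3 arrays and −0.14 as that of the Cy5 arrays. Whether its 2 spots also take up RNA of those similar genes was not tested.

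The colony stimulating factor receptors both had means just below 0 at 9 h. CSF1R, the receptor that drives macrophage growth and survival, showed 0.073, 0.10, 0.13 and −0.065 after 0 h, 0.031, 0.094, −0.26 and −0.061 after 3 h, 0.25, −0.0083, 0.067 and −0.099 after 6 h, and 0.049, −0.050, −0.21 and −0.067 after 9 h. Its mean at 9 h was −0.071 (adjusted p = 0.61, limma), and its arrays at the 4 times overlapped. CSF3R, the receptor of the granulocyte factor, was below 0 on all 4 arrays at 6 h (−0.45 to −0.0089, mean −0.18) and had a mean of −0.067 at 9 h.

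Among the secreted and cytosolic effectors, LYZ, which encodes lysozyme, had the smallest p at 9 h. The mean of LYZ at 9 h was the lowest of all members. Its ratios were 0.086, 0.28, −0.034 and −0.083 after 0 h, −0.24, 0.18, −0.040 and −0.030 after 3 h, and 0.063, 0.15, −0.033 and −0.090 after 6 h. At 9 h they were 0.090, −1.69, 0.12 and 0.22. Replicate 2 alone was low, and the other 3 arrays had a mean of 0.14, so that the mean of −0.31 ± 0.21 (SE, n = 4; adjusted p = 0.47, limma) changed sign without that array. S100A8 and S100A9, the subunits of calprotectin, stood at −0.066 and 0.037 after 9 h. LGALS3, a galectin of macrophages, stood at −0.035, FCN1, a lectin of the complement system, at 0.035, and VCAN, a matrix proteoglycan of classical monocytes, at −0.016. At 3 h FCN1 and VCAN were above 0 and S100A8 below 0 on all 4 arrays, with means of 0.077, 0.081 and −0.089. Of the FCN1 spots, only that with a mean of 0.132 was above 0 on all 4 arrays.

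The azurophil granule genes encode proteins stored for the killing of microbes, and none had a mean farther than 0.059 from 0 at 9 h. MPO, the peroxidase, showed −0.075, −0.13, 0.032 and −0.027 after 0 h, 0.10, −0.062, 0.19 and −0.041 after 3 h, −0.21, −0.084, −0.071 and −0.0075 after 6 h, and −0.18, 0.18, −0.075 and −0.084 after 9 h. It was below 0 on all 4 arrays at 6 h only (mean −0.093, adjusted p = 0.65, limma). ELANE, the neutrophil elastase gene at chr19:852303-856243, showed −0.014, −0.092, 0.18 and −0.085 after 0 h, 0.015, 0.092, −0.023 and −0.054 after 3 h, −0.051, 0.079, −0.045 and −0.11 after 6 h, and −0.033, −0.0031, 0.027 and 0.055 after 9 h. Its sign differed between arrays at every time, and its means ran from −0.032 to 0.011.

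PRTN3, the gene of proteinase 3, showed −0.13, −0.40, −0.19 and 0.11 after 0 h, −0.041, 0.098, 0.089 and 0.087 after 3 h, −0.18, −0.00082, 0.18 and −0.056 after 6 h, and 0.049, 0.031, −0.0027 and −0.23 after 9 h. CTSG, the gene of cathepsin G on chromosome 14, showed 0.014, 0.054, 0.044 and 0.071 after 0 h, 0.089, −0.031, −0.11 and 0.089 after 3 h, −0.0057, 0.083, 0.088 and −0.028 after 6 h, and 0.058, −0.16, −0.029 and −0.10 after 9 h. CTSG was above 0 on all 4 arrays at 0 h, when neither dye held treated cells according to the methods. AZU1, which encodes azurocidin, an antimicrobial relative of these proteases without protease activity, had the widest spread of the 5. Its ratios were −0.50, −1.05, 0.095 and 0.11 after 0 h, −0.16, 0.27, 0.43 and 0.29 after 3 h, −0.78, −0.048, 0.18 and 0.040 after 6 h, and −0.27, −0.072, 0.42 and 0.13 after 9 h. The 2 low arrays at 0 h were those with treated RNA in Cy5. The adjusted p of these 3 genes at 9 h was 0.85 for PRTN3, 0.53 for CTSG and 0.92 for AZU1 in limma.

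Of the transcription factors, KLF4, which promotes the monocyte fate, had the smallest p at 9 h. Its ratios were 0.027, −0.045, 0.33 and 0.20 after 0 h, −0.060, −0.12, 0.0013 and 0.089 after 3 h, 0.085, −0.21, 0.11 and 0.16 after 6 h, and 0.19, 0.072, 0.040 and 0.30 after 9 h. All 4 arrays were above 0 at 9 h, within the range of the 0 h arrays, and the mean of 0.15 had an adjusted p of 0.25 in limma. IRF8, the factor that steers precursors to monocytes rather than granulocytes, showed −0.11, −0.18, 0.47 and 0.048 after 0 h, −0.15, 0.011, −0.61 and −0.12 after 3 h, −0.12, 0.088, −0.35 and −0.32 after 6 h, and −0.061, −0.41, −0.28 and −0.18 after 9 h. It was the only one of the 3 factors below 0 on all 4 arrays at 9 h, where the mean was −0.23 ± 0.11 (SE, n = 4), a fold of 0.851 (adjusted p = 0.26, limma). Its difference from 0 h was −0.29 at 9 h, with an adjusted p of 0.55 in limma.

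SPI1, the gene of PU.1, showed −0.34, −0.91, −0.021 and 0.034 after 0 h, −0.058, 0.29, 0.30 and 0.24 after 3 h, −0.52, −0.13, −0.085 and −0.19 after 6 h, and −0.24, −0.036, 0.040 and 0.11 after 9 h. The 6 h arrays were all below 0 and did not overlap those of 3 h. The contrast of 6 h with 3 h was −0.42 and that of 3 h with 0 h was 0.50, with adjusted p of 0.53 and 0.59 in limma. AZU1 had means of −0.34, 0.21, −0.15 and 0.05 at the 4 times and SPI1 means of −0.31, 0.19, −0.23 and −0.03. For both the lowest array was replicate 2 at 0 h, as it was for PRTN3, CSF3R and CD68. The means of CSF3R, CD68 and CD4 were likewise below 0 at 0 and 6 h and above 0 at 3 h. So were those of CD14, FCGR2A, VCAN, MPO, ELANE, PRTN3 and ANPEP. The share of all genes with this order of signs was not counted. A link between SPI1 and AZU1 was not tested.

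**Figure D3:**
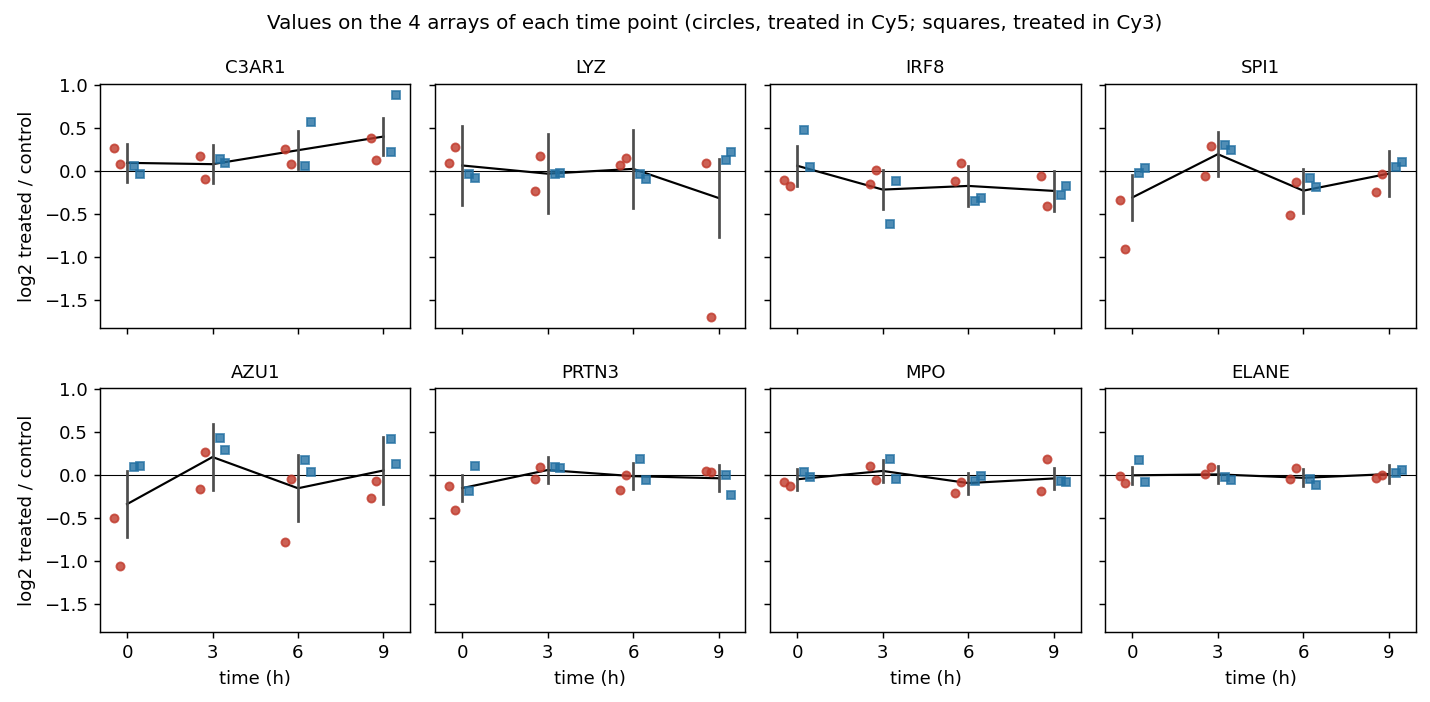
Log2 ratio of treated over control (vertical axis) against time in hours (horizontal axis) for 8 members; points are the 4 arrays of a time (circles, treated in Cy5; squares, treated in Cy3), the line joins the means and bars are 95% intervals of the limma fit. Means of C3AR1 stand at 0.24 and 0.40 at 6 and 9 h, and SPI1, AZU1 and PRTN3 are lowest on replicate 2 at 0 h.

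Whether the ratio of a member moved between time points was tested by contrasts of the same limma fit. No member was called between 3 and 0 h, 6 and 0 h, 9 and 0 h, 6 and 3 h, 9 and 6 h or 9 and 3 h, where the share of all genes called was 0% each time. At an unadjusted p of 0.05 the contrasts held 3, 0, 0, 2, 1 and 3 members, against 8.43, 1.31, 9.60, 8.79, 2.56 and 12.1% of all genes. Robust regression in limma called 0 members in each of the 6 contrasts as well. The main contrasts were unpaired. With the replicate number as a random block in limma, 0 members were called too. At that p the blocked contrasts held 5, 0, 2, 3, 2 and 5 members. Of 17329 genes they held 2400, 478, 2711, 2529, 922 and 3174. In the main fit, the 3 members of the contrast of 3 h with 0 h were CD68, AZU1 and SPI1, all with the higher ratio at 3 h. Over all genes this contrast also held more genes with the higher ratio at 3 h (1078 against 383 at that p). Without replicate 2 it held 2 members, 0 of them with the higher ratio at 3 h. With the dye coefficient fitted as well it held 4, of which 2 were higher at 3 h. Those of the contrast of 9 h with 3 h in the main fit were MSR1, CD36 and C3AR1, all with the higher ratio at 9 h. Over all genes this contrast held 1138 with the higher ratio at 9 h and 958 with the lower at that p. In fits without a dye coefficient it held 0, 4, 1 and 0 members when replicates 1, 2, 3 and 4 were left out.

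Mature monocyte genes and granule genes were then set side by side. The median log2 fold change of the 23 mature monocyte genes was 0.0045, 0.018, 0.012 and 0.0048 at 0, 3, 6 and 9 h, with 12, 15, 14 and 12 of the 23 above 0. That of the 5 granule genes was −0.049, 0.048, −0.032 and −0.037, with 1, 5, 1 and 2 of the 5 above 0. Over all genes the median was −0.0060, −0.0022, −0.0045 and 0.0011. At 9 h the class medians on single arrays ran from 0.0069 to 0.031 for the monocyte genes and from −0.084 to −0.0027 for the granule genes, without overlap. Both medians changed sign at 9 h under some alternatives, since the granule median was 0.0050 with robust regression and up to 0.0074 without a replicate, and the monocyte median was down to −0.011 without a replicate. At 0 h, where the methods give no treatment and the labels name the agent, those of the granule genes ran from −0.13 to 0.071 and those of the monocyte genes from −0.016 to 0.035. The class medians stood farther apart at 0 h (0.0045 and −0.049) than at 9 h (0.0048 and −0.037). At 3 h the granule median was the higher. The 7 shared genes had medians of −0.013, 0.0087, −0.12 and −0.067 at the 4 times.

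**Figure D4:**
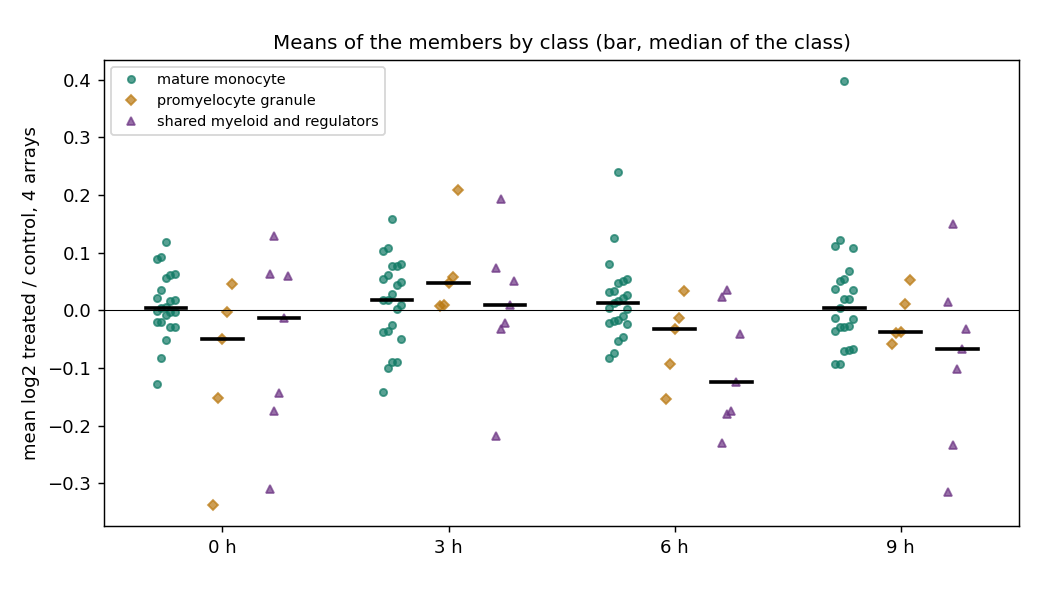
Mean log2 ratio of treated over control on 4 arrays (vertical axis) for each member by class at 0, 3, 6 and 9 h (horizontal axis), with the class median as a black bar. The medians of the mature monocyte genes stay between 0.0045 and 0.018, and those of the 5 granule genes between −0.049 and 0.048.

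The members with all 4 arrays on the same side of 0 were counted at each time beside the share of all genes. At 0 h, 1 member was above 0 on all 4 arrays (CTSG, against 5.49% of all genes) and 2 were below (C5AR1 and CD4, 7.13%). At 3 h, 4 were above (CD68, FCN1, VCAN and CD86, 5.60%) and 2 below (S100A8 and CCR1, 8.07%). At 6 h, 2 were above (C3AR1 and C5AR1, 9.31%) and 4 below (CD14, MPO, CSF3R and SPI1, 9.61%). At 9 h, 3 were above (MSR1, C3AR1 and KLF4, 9.63%) and 2 below (CD4 and IRF8, 11.1%). The counts use the mean of the spots of a gene. At these times single spots of C5AR1, CCR1, CD86, FCN1 and MSR1 differed in sign between arrays.

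The dye moved with many of the ratios. When a dye coefficient was fitted in limma, it had an adjusted p under 0.05 for 10 of the 35 members, 4 with more signal in Cy5 and 6 in Cy3, against 26.0% of all genes. The coefficient was 0.18 for ITGB2, 0.14 for LGALS3, 0.11 for ITGAM and 0.065 for TYROBP. It was −0.27 for AZU1, −0.26 for FCGR2A, −0.15 for SPI1, −0.14 for CSF3R, −0.093 for FPR1 and −0.080 for KLF4. The ratios of the 2 dye orientations did not overlap for 24, 16, 17 and 19 of the 35 members at 0, 3, 6 and 9 h, against 58.5, 52.7, 44.0 and 45.1% of all genes. Since the dyes were swapped between replicates 1 and 2 and replicates 3 and 4, dye and replicate pair cannot be told apart.

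Related lists gave no call at any time point, and their genes are given as counts from the same fit. At 9 h, 0 of 15 other azurophil granule genes were called, 0 of 13 of the specific and gelatinase granules, and 0 of 6 of the NADPH oxidase, which makes superoxide in phagocytes. None was called among 23 further myeloid transcription factors, 31 further monocyte and macrophage genes and 16 genes that differentiating leukaemia lines raise. At an unadjusted p of 0.05 in limma the 6 lists held 0, 1, 0, 5, 7 and 6 genes at 9 h, beside 18.8% of all genes. The oxidase genes had median log2 fold changes of −0.11, 0.057, −0.18 and −0.13 at 0, 3, 6 and 9 h, with 1, 4, 0 and 1 of 6 above 0, and the median of their differences between 9 h and 0 h was 0.020. The lowest and highest means over these 6 lists at 9 h are named after their values were seen. They were −1.15 for THBD, the thrombomodulin gene, and 0.51 for CLEC4E, a lectin receptor of monocytes. THBD stood at −0.60 at 6 h. Neither gene was called, and their spread over the arrays is not given here. Lists for T, B and NK cells, erythroid cells, megakaryocytes, mast cells with basophils and eosinophils, dendritic cells and fibroblasts held 6 to 10 measured genes each, also without a call, and their medians at 9 h ran from −0.067 to 0.046.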

How the data were processed

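The deposited values are log2 ratios of Cy5 over Cy3 for each spot of 16 arrays. The authors applied normexp background correction, within-array loess and then Aquantile scaling across arrays in limma, a tool that the submitters' processing notes also name. Direction rests on the dyes in the labels, and the centring of the columns is not given beyond these steps. Column medians as deposited ran from −0.0071 to 0.0033. Intensities, detection and spot weights were not used here.

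The table lists 45220 spots, 40563 of them valued on all arrays and 4657 on no array. A single gene symbol was listed for 28970 of the former, and 11507 without a symbol and 86 with several were left out. Ratios of replicates 3 and 4 were reversed in sign, and the spots of a gene were averaged. limma 3.58.1 in R 4.3.3 (lmFit, eBayes) was fitted to all 16 arrays with a coefficient per time point (12 residual degrees of freedom, prior 3.20), and adjusted p-values are its Benjamini-Hochberg values over all genes per coefficient. The fit was tested on simulated data. Alternatives were the spot with the highest F-statistic, a dye coefficient, a replicate block (statmod 1.5.0), robust regression, array weights, each time point on its own arrays, centred and scaled arrays, all spots in the adjustment, single dye orientations, and leaving out each replicate. The dye coefficients of single members were added after the data were seen. Whether the 4 replicates came from separate cultures is given only by the labels' word biological, and 4 arrays at each time limit the precision of every estimate.

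The members and gene lists were chosen with earlier results of these data known, so classes were described and not tested. Every array value is given for the member with the smallest p at 9 h in each role and for the 5 granule genes, and for some further members after their values were seen. Gene symbols and positions are from RefSeq, GRCh38.p14. Figures and summaries used Python 3.11.15, pandas 2.3.3 and matplotlib 3.10.9.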

Additional observations from a re-analysis of the deposited data

Results flagged for a closer look

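Of 140 sets of 4 arrays (35 members at 4 times), 8 held an array whose gap to its nearest neighbour exceeded Dixon's 95% critical share of the range, and chance gives about 5% of such sets. At 0 h, TYROBP was highest on replicate 1 with 0.158, while the other 3 arrays lay between −0.070 and −0.057. At 3 h, PRTN3 was lowest on replicate 1 with −0.041 (others 0.087 to 0.098), SPI1 was lowest on replicate 1 with −0.058 (others 0.24 to 0.30), and FCN1 was highest on replicate 3 with 0.134 (others 0.057 to 0.058). At 6 h, ANPEP was highest on replicate 4 with 0.017 (others −0.066 to −0.055). At 9 h, LYZ was lowest on replicate 2 with −1.69 (others 0.090 to 0.22), CD68 was lowest on replicate 3 with −0.373 (others −0.026 to 0.014), and CCR2 was highest on replicate 1 with 0.125 (others −0.099 to −0.064). The widest of these gaps was that of LYZ, which has a single spot on the array.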

How the results depend on the processing

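Without spot signals a ratio near 0 cannot be told from a spot at background, which limits every statement on members with small ratios. The count of members called at 9 h went from 0 to 1 (C3AR1) with a dye coefficient and was 1 with a replicate block and dye coefficient together. Leaving out a replicate gave 0 to 1 at 9 h, where C3AR1 was called without replicate 2 or 3 and with the dye coefficient, and 0 to 1 for 6 h against 3 h, where SPI1 was called with the dye coefficient and without replicate 2, in a fit that called 421 of all 17329 genes. Members called stayed at 0 at 0, 3 and 6 h and in the other 5 contrasts under each alternative. The number of all genes called at 9 h was 92, and it was 325 with the dye coefficient, 329 with block and dye, 180 with robust regression, 7 with array weights and 0 on the arrays of 9 h alone. It was 0, 17, 0 and 32 without replicates 1, 2, 3 and 4, and 0, 312, 549 and 92 when the dye coefficient was fitted as well. The median of the mature monocyte genes at 0 h was 0.027 on replicates 1 and 2 only. At 3 h it was 0.041 with the highest-F spot, 0.042 on replicates 1 and 2 only, −0.012 on replicates 3 and 4 only, and 0.012 to 0.041 without a replicate. At 9 h it was −0.011 to 0.0062 without a replicate. The median of the granule genes was 0.047 at 0 h on replicates 3 and 4 only, and at 9 h 0.0050 with robust regression and −0.049 to 0.0074 without a replicate. The causes were not tested. Of 595 values of single members over the alternatives, 32, 49 and 50 had another sign than the main value at 3, 6 and 9 h. For the replicate block, deviations of same-numbered arrays correlated at 0.037 to 0.665 (median 0.351), over 0.1 in 23 of 24 pairs. Arrays with another number and the same dye orientation did so in 21 of 24 (median 0.230), and in 31 of 48 cases an array's best match at another time had its own number. Since 1 same-numbered pair was not over 0.1 and the labels name no shared batch, the numbers were not taken to pair the arrays. Independence of same-numbered arrays is not shown by this, and the contrasts of time points in the main fit were unpaired. A random block (consensus correlation 0.247) called 0 members and 99 genes at 9 h. In the contrasts it called 0 members, and 2 genes for 9 h against 0 h. Each blocked contrast held more genes at an unadjusted p of 0.05 in limma than the unpaired one, so the contrasts depend on this choice.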
